A study of Mus musculus with 9 samples.

Results

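The genes described here encode the proteins of the mitochondrial ribosome, read in mouse calvarial cells as they became osteoblasts. A row was taken as a member where its symbol began with Mrpl or Mrps followed by a digit and its type was protein coding. The rule found 78 rows with 77 symbols among 40548 genes, since the symbol Mrps23 had 2 Ensembl identifiers. By structure, 50 members belong to the large subunit and 27 to the small subunit, and Mrps36 belongs to neither core. The members lay on 17 chromosomes.

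Bone-forming progenitors were released from the calvaria, the skull roof, of newborn pups. The strain is C57BL/6 in the labels and C57BL/6J in the methods. The labels give the pups as postnatal day 2 to 3 and the methods as a wider range that included both sexes. Confluent cells were collected undifferentiated (day 0) or after 4 or 7 days in mineralization medium, with 3 libraries at each stage and 9 in all. No genotype or drug differed between stages. Mineralized cells were freed with collagenase before trypsin and non-mineralized cells with trypsin alone, so stage and dissociation cannot be told apart. The study calls the replicates biological, and the sources used here do not say which pups or litters each one came from.

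The mitochondrial ribosome translates the mRNAs of the 13 protein-coding genes of the mitochondrial genome. All 13 encode subunits of the respiratory chain and the ATP synthase. The 2 rRNAs of this ribosome are transcribed inside the organelle, whereas every one of its proteins is encoded in the nucleus, made on cytosolic ribosomes and imported. Many of these proteins have a counterpart in bacteria, and the others were added during the evolution of mitochondria. Inherited defects in several of them cause respiratory chain deficiency. Osteoblasts secrete large amounts of collagen and mineralize it, which is costly in ATP.

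The members were present at moderate levels and moved little. Of the 75 members with enough reads for the test, Mrpl14 and Mrps16 were higher at day 7 than at day 0, none was lower and 73 did not pass the threshold. The rise was 0.83 ± 0.20 (SE) on the log2 scale for Mrpl14 and 0.63 ± 0.16 for Mrps16. Calls were made with limma on log2(CPM + 0.5), where CPM are the reads on a gene scaled to a fixed total of reads on genes per library, at an adjusted p of 0.05. Among all 12712 genes tested, 12.6% were higher and 18.6% lower at day 7, so the share of members called, 2.67% higher and none lower, was below the background in both directions in this fit. In genes within the members' range of mean CPM the shares at the same adjusted threshold were 12.2% higher and 18% lower. By the p before adjustment, at 0.05, limma put 9 members higher and 1 lower, against 15.2% and 25.0% of all genes.

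These counts depended on how the libraries were scaled. With median-of-ratios scaling in place of library totals, 22 members (29.3%) were higher and none lower, against 22.2% and 20.7% of all genes. The fit named in the study's methods, voom with quality weights and TMM scaling, called 27 higher (36.0%) and 1 lower (1.33%), against 24.8% and 23.4% of all genes. The members' share called higher was thus below that of all genes with library totals and above it with these scalings, whereas their share called lower was below it with each. Those scalings moved the median change over all tested genes from -0.11 to -0.01 (log2). Mrpl14 and Mrps16 passed in all 20 of the alternatives, and no other member did.

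The library labelled day 0 replicate 3 stood apart. It had the fewest reads on genes, 7741204, against up to 37306090 in a day 4 library. It also gave 19.0% of its reads to Gm42418, Mir6236, Lars2 and Gm15564, genes whose reads rise with ribosomal RNA left in a library. Day 7 replicate 2 gave them 12.0%, and the other 7 libraries between 0.173% and 4.85%. Of the 75 tested members, 70 had their lowest day 0 CPM in day 0 replicate 3. The same count was not made over all genes. Without it, 4 members were higher (Mrpl14, Mrpl52, Mrps16 and Mrps21) and 5 lower (Mrpl13, Mrpl20, Mrpl3, Mrpl49 and Mrpl55), against 12.6% and 36.9% of all genes.

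The cells carried the marks of their label. Of 6 osteoblast markers, 5 were higher at day 7 and Runx2 did not pass, and their summed CPM ran from 11700 to 16400 at day 0, 31700 to 35500 at day 4 and 39200 to 49500 at day 7. Ibsp, a bone matrix protein, rose by 9.43 ± 0.16 on the log2 scale. Markers of other cells moved with stage too. All 6 macrophage markers were higher at day 7 (summed CPM 59.2 to 103 at day 0, 116 to 126 at day 4 and 113 to 148 at day 7), with Ptprc up most by 1.37 ± 0.29. Of 6 osteoclast markers 2 could be tested and both were higher, Acp5 by 2.74 ± 0.24, with summed CPM of 150 to 198, 351 to 361 and 347 to 361. Of 5 chondrocyte markers tested 2 were higher and 3 lower, from Col10a1 at 1.54 ± 0.23 to Col2a1 at -2.16 ± 0.26, with summed CPM of 936 to 2720, 311 to 988 and 271 to 766. Of 10 proliferation markers 8 were lower at day 7, Plk1 most at -0.88 ± 0.17, with summed CPM of 620 to 948 at day 0, 361 to 483 at day 4 and 455 to 522 at day 7. Skeletal muscle markers summed to 3.59 to 14.5 CPM in every library (of 2 tested, Acta1 was higher at 0.93 ± 0.25 and Ttn lower at -0.80 ± 0.30). The endothelial and adipocyte markers stayed at or below 0.92 CPM in sum, and 2 of 5 and 2 of 4 were at 0 in all 9 libraries. In bulk RNA, fewer cells of a type and less RNA per cell cannot be told apart, and the part of these cell types in the members' values was not tested.

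Upstream sequences are shown for 4 members: both genes called higher, the most abundant member, and Mrpl17, chosen after its values were seen because its libraries were above day 0 at both later stages. Each line gives the 150 bases before the start of the gene, 5′ to 3′ on the gene's own strand, from RefSeq on GRCm38.p6. Capitals mark matches to 3 short motifs, GCATGCGC of the NRF1 type, CCGGAAG of the ETS family, which includes GABP, and AAGATGGC of the YY1 type, on either strand. All 3 factors are known regulators of nuclear genes for mitochondrial proteins.
Mrps16, chr14:20393635-20393784, minus strand, the more upstream of 2 starts: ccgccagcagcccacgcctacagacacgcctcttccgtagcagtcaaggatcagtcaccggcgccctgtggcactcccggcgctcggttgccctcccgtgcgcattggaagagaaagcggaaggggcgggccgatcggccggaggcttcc
Mrpl14, chr17:45686199-45686348, plus strand: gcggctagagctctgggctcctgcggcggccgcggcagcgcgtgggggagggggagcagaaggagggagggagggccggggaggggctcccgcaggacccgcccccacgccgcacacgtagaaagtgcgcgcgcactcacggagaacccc
Mrpl52, chr14:54426759-54426908, plus strand: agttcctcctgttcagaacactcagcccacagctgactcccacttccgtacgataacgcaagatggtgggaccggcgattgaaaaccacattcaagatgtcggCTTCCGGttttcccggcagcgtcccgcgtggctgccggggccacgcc
Mrpl17, chr7:105811088-105811237, minus strand: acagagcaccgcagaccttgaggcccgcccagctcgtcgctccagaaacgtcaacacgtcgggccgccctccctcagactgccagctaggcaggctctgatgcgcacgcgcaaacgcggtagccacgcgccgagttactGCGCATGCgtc

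The printed stretches of Mrps16 and Mrpl14 held none of the 3 motifs, that of Mrpl52 an ETS match and that of Mrpl17 an NRF1-type match near its start. In the full promoter windows, Mrps16 also held an ETS match, at its other start, and so did Mrpl17, whereas Mrpl14 held none of the 3. For these windows, 250 bases before to 50 after the start, 68 of the 77 symbols had an entry. In the shares that follow, the promoter of a gene stands for all of its annotated starts, and a match at any of them counted. The number of starts per gene was not matched between the sets. The ETS letters stood in 36.8% of member promoters, against 20.1% of the promoters of tested genes and 9.93% of all promoters. The YY1-type letters stood in 17.6%, against 5.35% and 3.19%, and the NRF1-type letters in 10.3%, against 6.15% and 3.05%. At least 1 of the 3 was found in 37 of 68 member promoters (54.4%), against 28.6% of the promoters of tested genes. GGGCGG, the letters of the SP1 site, stood in 50% of member promoters and 70.8% of those of tested genes, and TATAAA in 7.35% and 8.46%. None of the 5 motifs contains another. A match is a string of letters in the window, and binding was not measured. The transcripts of the 3 factors did not pass the test, with log2 fold changes of -0.17 ± 0.16 for Nrf1, -0.27 ± 0.16 for Gabpa and 0.13 ± 0.16 for Yy1.

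Levels per gene length are given in RPKM, reads divided by the length of the gene model in kilobases and by the library total, scaled as for CPM. The median member had 12.3 RPKM over the 9 libraries, against 6.33 for all tested genes, and the middle part of the members, between the quartiles, lay between 7.19 and 22.2 RPKM. Mrpl52, a large subunit protein without a bacterial counterpart, was the most abundant at 131 ± 5.97, 159 ± 7.13 and 166 ± 20.3 RPKM (SD, n = 3) at days 0, 4 and 7. Mrps16 followed at 56.5 ± 4.15, 74.5 ± 2.79 and 87.9 ± 10.5. Mrpl54 had 62.8 ± 10.6, 56.7 ± 1.47 and 63.6 ± 3.53, and at day 0 its libraries overlapped those of Mrps16. Mrpl2, a core protein of the peptidyl transferase centre, had 44.3 ± 4.56, 36.8 ± 0.564 and 41.1 ± 3.22, and Mrpl42 had 39.3 ± 6.04, 35.6 ± 0.715 and 39.7 ± 1.93, which overlapped with Mrpl2 at every stage.

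**Figure D1:**
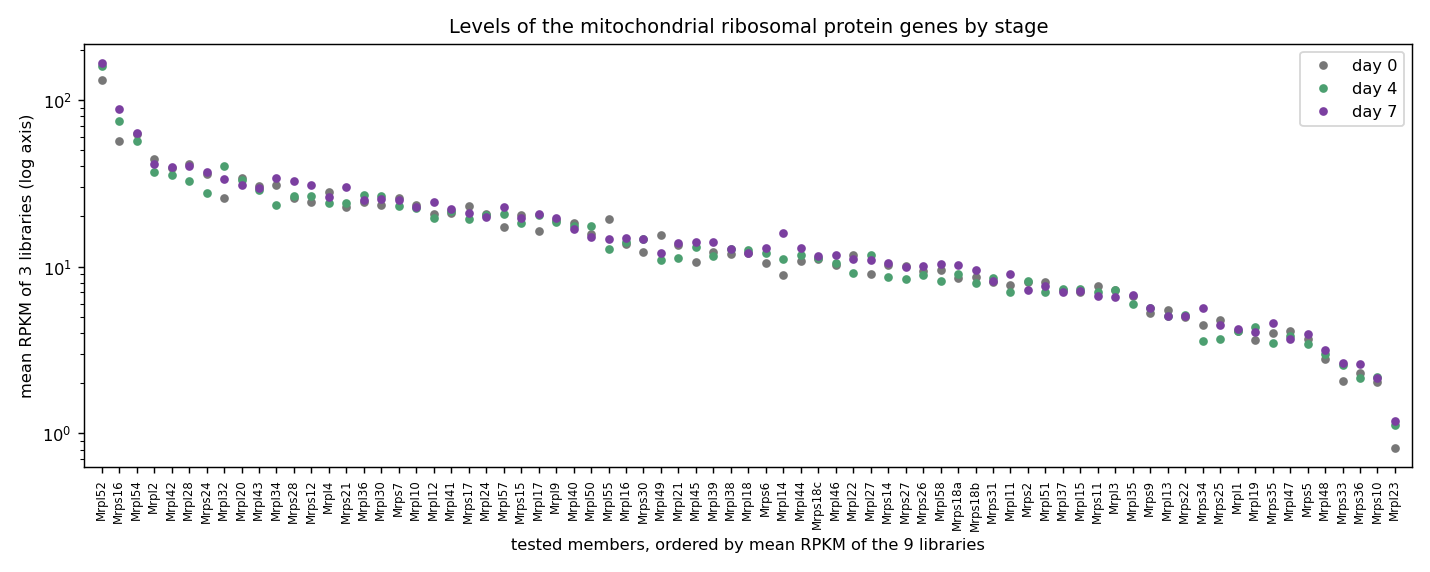
Mean RPKM of 3 libraries on a log axis for each of the 75 tested members, ordered by the mean of the 9 libraries, with 1 point for each stage. Mrpl52 stood highest at 131 to 166 RPKM, Mrpl23 lowest at 0.822 to 1.19 RPKM, and the stages lay close together for most members.

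By gene model length, the lowest tested members were Mrpl23, Mrps10, Mrps36, Mrps33 and Mrpl48. Mrpl23, a protein at the exit of the peptide tunnel, had between 0.581 and 1.53 RPKM, from as few as 8 reads in a library, with 0.822 ± 0.251, 1.13 ± 0.218 and 1.19 ± 0.297 at days 0, 4 and 7. Mrps10 had 2.03 ± 0.480, 2.18 ± 0.176 and 2.14 ± 0.314, Mrps36 had 2.31 ± 0.283, 2.14 ± 0.257 and 2.61 ± 0.293, and Mrps33 had 2.06 ± 0.340, 2.57 ± 0.297 and 2.63 ± 0.186. These 3 overlapped at days 0 and 4, and at day 7 Mrps10 lay below Mrps33 in every library. Mrpl48 had 2.79 ± 0.487, 2.99 ± 0.0985 and 3.18 ± 0.210. From the highest to the lowest tested member the levels were 145-fold apart. The order was sensitive to the length used, and the lengths come from different annotations. Gene model lengths follow from the deposited values, and principal transcripts, the longest for each gene, come from GENCODE M21. A transcript longer than its gene model, as for Mrps16 and Mrpl32, includes bases over which reads may not have been counted. Divided by the length of the principal transcript, the spread was 55.8-fold, Mrps16 moved from rank 2 to rank 37 (its gene model had 566 bp and its principal transcript 2572 bp), and Mrpl32 moved from rank 8 to rank 60 (768 and 3013 bp). In the other direction, Mrps10 moved from rank 74 to rank 34 (8079 and 1018 bp). Mrpl52 was first by both lengths and Mrpl23 last.

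Not all members could be read. Mrpl53 had at most 5 reads in a library. Its exons overlap Gm42688 on the same strand over 88.0% of their length, and the study counted only unambiguous reads. The Mrps23 row with a known position on chromosome 11 also had at most 5 reads, and the second identifier had 0 reads throughout, which allows for up to 3 reads in a library. Mrpl33 was not analysed here. In total 32 members share exon bases with another gene, and the sources do not state whether counting used strand, so their levels are uncertain. In 11 members, more than 20% of the stretches of 50 bases occur in another gene as well. Beside Mrpl53 these were Mrps34 at 71.8% (Mapk8ip3 and Nme3), Mrps25 at 68.2% (Nr2c2), Mrpl19 at 37.0% (mainly Gcfc2), Mrpl43 at 31.6% (mainly Twnk), Mrps18b at 30.2%, Mrpl27 at 26.9%, Mrpl24 at 23.3% (mainly Rrnad1), Mrpl47 at 23.3%, Mrps18c at 22.9% and Mrpl22 at 22.4%. Mrpl23 had 11.8% (mainly its pseudogene Mrpl23-ps1). Mrpl14 shares 106 exon bases with Tmem63b on the opposite strand.

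Mrpl14, a large subunit protein conserved from bacteria that lies at the interface between the subunits, changed most. Its libraries had 10.6, 9.69 and 6.39 RPKM at day 0, 10.7, 11.1 and 11.4 at day 4, and 15.5, 16.6 and 15.5 at day 7. Each stage lay wholly above the one before. The log2 fold change from day 0 to day 7 was 0.83 ± 0.20 with an adjusted p of 0.000807 by limma, and the exact permutation test gave its smallest possible p of 0.1. The range over the alternatives was 0.62 to 0.96, with adjusted p between 2.04e-06 and 0.00959. Tmem63b, the gene it overlaps, had a change of 0.23 ± 0.16, which did not pass.

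Mrps16, a small subunit protein also found in bacteria and needed to build that subunit, had 60.2, 57.2 and 52.0 RPKM at day 0, 76.5, 71.3 and 75.7 at day 4, and 90.3, 76.4 and 97.1 at day 7. All libraries of the later stages were above those of day 0, and days 4 and 7 overlapped. The log2 fold change was 0.63 ± 0.16 with an adjusted p of 0.00215 by limma and an exact permutation p of 0.1, and the alternatives ranged from 0.42 to 0.80 with adjusted p from 3.93e-09 to 0.0445. The share of the summed member CPM taken by Mrps16 went from 1.42% to 1.68% at day 0 to 1.99% to 2.08% at day 4 and 2.11% to 2.32% at day 7.

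**Figure D2:**
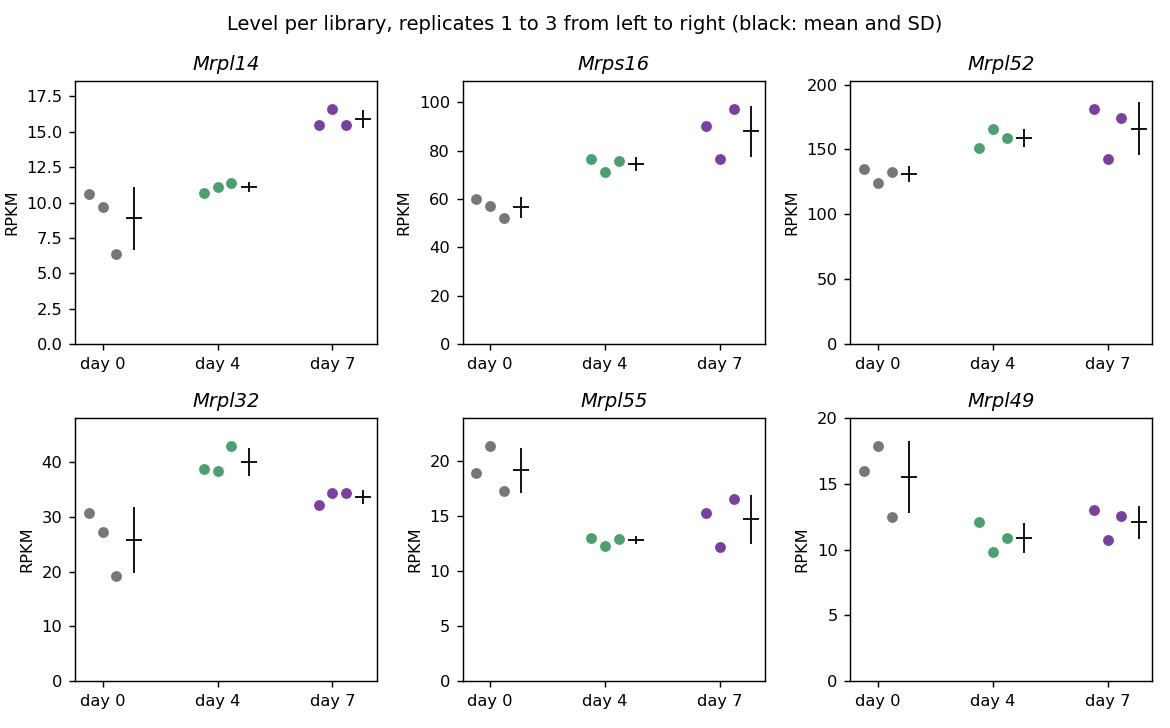
RPKM of 6 members in each library, with a point per library, replicates 1 to 3 from left to right, and the mean with SD in black. Mrpl14 and Mrps16 were above day 0 in every later library, Mrpl32 was highest at day 4, and Mrpl55 and Mrpl49 were lower at day 4 than at day 0 in every library.

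The next largest differences did not pass. Mrpl32, which must be cut by a mitochondrial protease before it joins the ribosome, had 30.8, 27.3 and 19.2 RPKM at day 0, 38.7, 38.5 and 43.0 at day 4, and 32.2, 34.4 and 34.4 at day 7. It was above day 0 at both later stages and highest at day 4 in every library, and day 7 against day 0 gave 0.40 ± 0.18 with an adjusted p of 0.0816 by limma. Mrpl45, at the tunnel exit where the ribosome meets the inner membrane, gave 0.40 ± 0.17 (adjusted p = 0.0705), and Mrpl23 gave 0.42 ± 0.26 (adjusted p = 0.238).

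Mrpl52 had 135, 124 and 133 RPKM at day 0, 151, 166 and 159 at day 4, and 181, 143 and 174 at day 7. Both later stages lay above day 0, and the log2 fold change of 0.34 ± 0.16 had an adjusted p of 0.0976 by limma. Mrpl17, a protein of the tunnel exit, had 17.7, 17.4 and 13.9, then 20.7, 20 and 20.6, then 21.9, 18.2 and 21.9 RPKM, with a change of 0.34 ± 0.16 and an adjusted p of 0.0990. Mrps21 (22.7, 24.2 and 30 mean RPKM at days 0, 4 and 7) and Mrpl57 (17.2, 20.8 and 22.7), named after their values were seen, came closest to the threshold with adjusted p of 0.0547 and 0.0563 by limma.

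On the other side, Mrpl55, the counterpart of a bacterial large subunit protein, had 18.9, 21.4 and 17.3 RPKM at day 0, 13, 12.3 and 12.9 at day 4, and 15.3, 12.2 and 16.6 at day 7. It was the only member with every day 7 library below every day 0 library. Its log2 fold change was -0.38 ± 0.18, with an adjusted p of 0.107 by limma in the main fit. Mrpl49, a large subunit protein without a bacterial counterpart, had 16.0, 17.9 and 12.5, then 12.1, 9.82 and 10.9, then 13, 10.7 and 12.6 RPKM. Its libraries overlapped between days 0 and 7, and the change was -0.34 ± 0.18 with an adjusted p of 0.142. The values of Mrps11, Mrps2 and Mrpl47 were -0.18 ± 0.18, -0.15 ± 0.17 and -0.14 ± 0.19, and their adjusted p lay between 0.497 and 0.609. Mrps11 and Mrpl46, both members, are neighbours on chromosome 7 that point away from each other and share 173 exon bases at their starts.

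Grouped by role, the classes had medians close together in the main fit, which made too few calls to compare them. Voom with quality weights called 24.8% of all genes higher, and members of each of the 4 classes. The largest share called higher in that fit was among large subunit proteins without a bacterial counterpart. No difference between classes was tested, and the counts that follow are from the main fit. Of 29 large subunit proteins with a bacterial counterpart 1 was higher, with a median log2 fold change of 0.05. Of 20 large subunit proteins without one none was higher, with a median of 0.11. Of 16 small subunit proteins with a counterpart 1 was higher (median 0.08) and of 9 without one none (median 0.10). None of the 4 classes had a member called lower, and the medians of the whole subunits were 0.06 for the large and 0.09 for the small.

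Apart from Mrps16, the members singled out for a known role did not pass in the main fit, although Mrpl12, Mrps12, Mrpl58, Mrps18a, Mrps30, Mrpl44, Mrpl45 and Mrps34 were called higher by voom with quality weights. Mrpl12, of the stalk that recruits translation factors, had a log2 fold change of 0.24 ± 0.17 and Mrps12, of the decoding centre, 0.35 ± 0.18. Mrpl58, a peptidyl-tRNA hydrolase built into the large subunit that can free stalled ribosomes, had 0.12 ± 0.16. The paralogs Mrps18a, Mrps18b and Mrps18c, which descend from a single bacterial protein, had 0.26 ± 0.16, 0.16 ± 0.18 and 0.07 ± 0.20, at 10.2, 9.58 and 11.6 mean RPKM at day 7. Mrps18a and Mrps30 sit in the large subunit despite their names, and Mrps30 had 0.27 ± 0.18. Of the members near the tunnel exit, Mrpl24 had -0.03 ± 0.17. Mrpl3, a core protein conserved from bacteria, had -0.11 ± 0.17, Mrpl44 had 0.26 ± 0.18, and the small subunit proteins Mrps22 and Mrps34 had 0.03 ± 0.18 and 0.32 ± 0.19. Mrps36, now known as a component of the 2-oxoglutarate dehydrogenase complex, had 0.15 ± 0.23. The sign of Mrpl2, Mrpl3, Mrpl24, Mrpl42, Mrpl54, Mrps10, Mrps18c and Mrps22 turned under at least 1 alternative, and none of these members moved by more than 0.11 in the main fit.

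**Figure D3:**
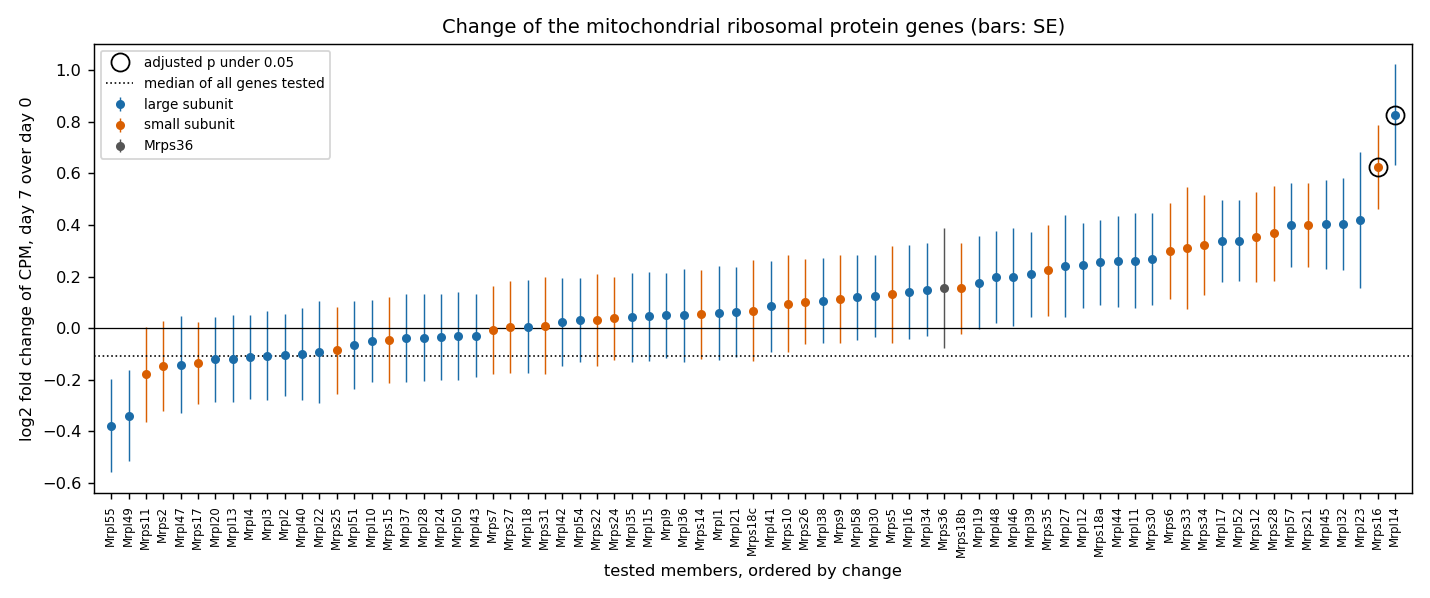
Log2 fold change of CPM from day 0 to day 7 with its SE for the 75 tested members in order, coloured by subunit, with the dotted line at the median of all genes tested (-0.11). Only Mrpl14 and Mrps16, ringed, passed the test, and members of both subunits were mixed along the whole order.

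As a group the members were tightly spread. Their median log2 fold change was 0.07, against -0.11 for all tested genes, which places it 0.18 above that median, and the alternatives gave 0.12 to 0.20. The members' median stayed above that of all genes in each alternative, whereas its own sign turned, from 0.19 with DESeq2 or edgeR to -0.06 without day 0 replicate 3. Of the 75 members, 52 had a positive change, against 4920 of all 12712 tested genes, and 66 lay above the median of all genes. The interquartile range was 0.28, against 0.54 in all genes. Only 2 members (2.67%) moved by more than 0.5 in either direction, against 28.4% of all genes, and 0 moved more than 2-fold, against 9.90%. The members' gene models were shorter than those of tested genes (median 1848 against 3847.5 bp), and with a correction for length 16 members were higher and 2 lower (Mrpl49 and Mrpl55), against 22.2% and 19.0% of all genes, and the median above all genes was 0.12.

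**Figure D4:**
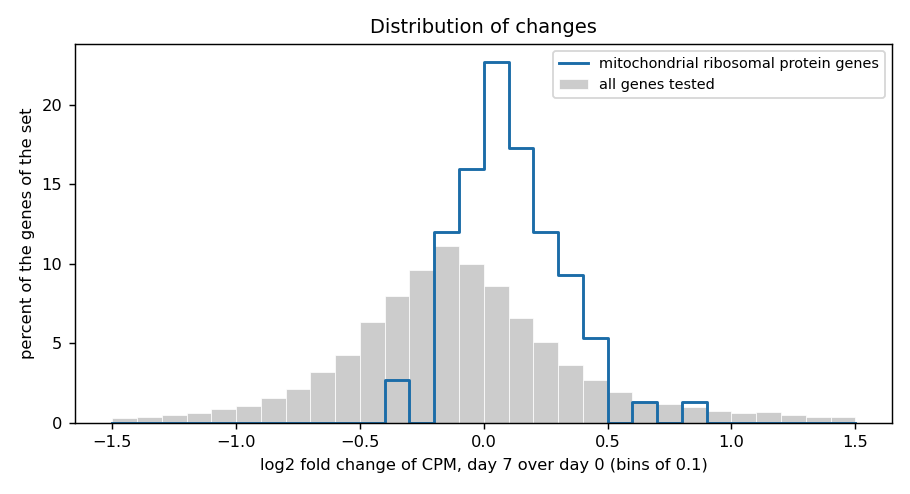
Percent of genes in bins of 0.1 of the log2 fold change from day 0 to day 7, for all 12712 tested genes (grey bars) and the 75 tested members (blue line). The members lay between -0.38 and 0.83, and 4.71% of all genes and 0 members lay beyond the plotted range.

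Taken by libraries without a model, 11 members had every day 7 library above every day 0 library, or 14.7% against 16.9% of all genes, and 1 had every one below, against 25.4% of all genes. Since the day 4 values come from a separate, more deeply read table, they entered no test and are compared by such counts, by means and by medians. At day 4, 8 members lay wholly above day 0 (background 21.1%) and 7 wholly below (background 22.2%). Those above were Mrpl14, Mrpl17, Mrpl27, Mrpl30, Mrpl32, Mrpl52, Mrpl57 and Mrps16, and those below were Mrpl2, Mrpl22, Mrpl49, Mrpl55, Mrps17, Mrps24 and Mrps25. Of these, Mrpl27, Mrpl22 and Mrps25 are among the members with shared sequence above. Without day 0 replicate 3 the second count was 37, against 49.7% of all genes.

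From day 4 to day 7, 21 members lay wholly above (background 13.8%) and 3 wholly below, namely Mrpl19, which shares sequence, Mrpl32 and Mrpl40 (background 24.6%). By means, 32 members were lowest at day 4, 15 were highest there, 22 had a higher mean at each step and 6 a lower one. These patterns were not counted over all genes. The members' median went by 0.00 from day 0 to day 4 and by 0.10 from day 4 to day 7 on the log2 scale, while that of all genes went by -0.05 and -0.06. Mrps24, of the small subunit, is an example of a member that was lowest at day 4. It had 35.3, 39.9 and 32.7 RPKM at day 0, 27.0, 27.4 and 28.6 at day 4, and 38.1, 32.0 and 40.8 at day 7.

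By CPM, the summed level of the members overlapped between all stages. The 78 rows together had 2307, 2276 and 1749 CPM at day 0, 2084, 2025 and 2135 at day 4, and 2298, 2048 and 2368 at day 7. Days 0 and 7 overlapped (exact permutation p = 0.6, two-sided). Library totals without the 4 rRNA-rich genes gave 2413, 2387 and 2160, then 2192, 2115 and 2183, then 2338, 2329 and 2374 (exact permutation p = 1.0 for day 7 against day 0). On this second scale every day 7 sum lay above every day 4 sum, a difference that was not tested. The libraries lowest in their stage by CPM among days 0 and 7, day 0 replicate 3 and day 7 replicate 2, were those with 19.0% and 12.0% of reads on the 4 genes.

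**Figure D5:**
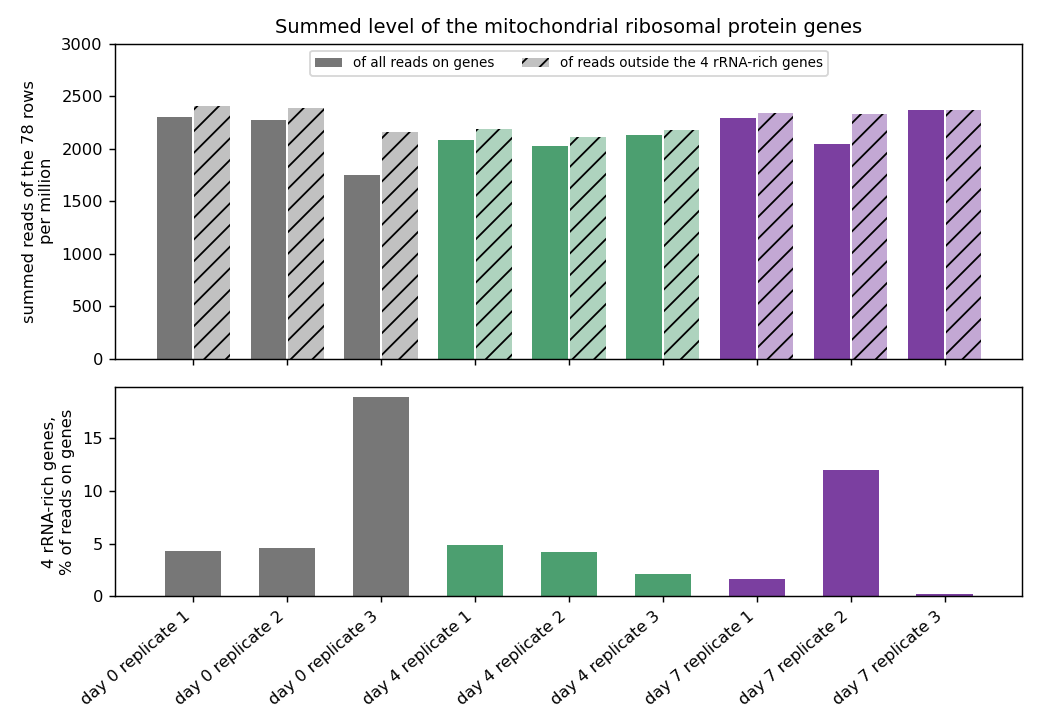
Summed CPM of the 78 members in each library, over all reads on genes (plain bars) and over reads outside 4 rRNA-rich genes (hatched bars), with the share of reads on those 4 genes below. The sums lay between 1749 and 2368 CPM, and between 2115 and 2413 on the second scale.

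The RNAs that these ribosomes read behaved otherwise. Of the 13 protein-coding genes of the mitochondrial genome 7 could be tested and 6 were higher at day 7, with a median log2 fold change of 0.73. Another 5 stood at 0 throughout. Only reads that aligned once and fell on a single gene were counted, so a 0 does not show that an RNA was absent. The 13 together, with 5 adding nothing, had 2630, 2500 and 2250 CPM at day 0, 6720, 7540 and 7470 at day 4, and 4430, 3750 and 4640 at day 7. All 7 tested were highest at day 4 in every library. For mt-Co1, a subunit of cytochrome c oxidase, the RPKM were 1110, 1030 and 860, then 2360, 2780 and 2700, then 1980, 1720 and 2050, with a change of 0.94 ± 0.18 (adjusted p = 3.63e-05 by limma). The summed members varied by less than the summed mitochondrial mRNAs across the same libraries, and the difference between them was not tested. The rRNA of the small mitochondrial subunit, mt-Rnr1, was lower at -1.61 ± 0.45 and that of the large subunit, mt-Rnr2, did not pass at -0.33 ± 0.31. Both were subject to the depletion of ribosomal RNA, and mt-Rnr1 was highest in day 0 replicate 3 (3340 RPKM) and day 7 replicate 2 (2610 RPKM).

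The remaining genes of mitochondrial translation moved in both directions. Over 5 lists with 81 tested genes, 4 were higher, 5 lower and 72 did not pass, with a median of -0.10, close to that of all genes. Subunits of the mitochondrial ribosome that carry other names were tested in 5 cases, and 2 were higher. Chchd1, of the small subunit, had 37.4, 35.3 and 24.4, then 50, 55.5 and 52.2, then 62.8, 52.3 and 62.0 RPKM, a change of 0.87 ± 0.18 (adjusted p = 0.000109). Gadd45gip1, of the large subunit near the tunnel exit, changed by 0.65 ± 0.17 (adjusted p = 0.00293), and the values of Dap3, Ptcd3 and Aurkaip1 were -0.14 ± 0.16, -0.10 ± 0.17 and 0.13 ± 0.16.

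Of 26 assembly factors 1 was higher, Ngrn (0.48 ± 0.18), which helps to build the large subunit, and 2 were lower, the GTPase Mtg2 (-0.54 ± 0.18) and the rRNA-processing factor Ybey (-0.55 ± 0.22). None of 13 translation factors passed by limma, nor had any of them an unadjusted p under 0.05, and their median was -0.12. Of 20 aminoacyl-tRNA synthetases Nars2 was higher (0.60 ± 0.20) and Cars2 (-0.61 ± 0.18) and Lars2 (-2.22 ± 0.60) were lower. Lars2 is among the 4 rRNA-rich genes. Its RPKM was lowest in day 7 replicate 3 (82.0) and highest in day 0 replicate 3 (9880), the libraries with the smallest and largest share of reads on those genes. That share includes Lars2 itself. Of 17 factors of mitochondrial transcription and mRNA stability Lrpprc, which stabilizes mitochondrial mRNAs, was lower, with 13.8, 14.2 and 9.93, then 8.88, 9.38 and 8.77, then 8, 7.51 and 8.39 RPKM (-0.65 ± 0.16, adjusted p = 0.00125). Of 10 regulators of nuclear mitochondrial genes Myc alone was higher (0.52 ± 0.17), with its highest RPKM at day 4, 16.4 to 23.1, against 8.71 to 11.5 at day 0 and 13 to 17 at day 7.

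Cytosolic ribosomal protein genes, which encode the proteins of the other ribosome of the cell, had 20 of 81 tested genes higher and none lower. Their median was 0.29, and Rpl22l1 changed most (1.25 ± 0.22). The nuclear subunits of respiratory complex I, which depends on mitochondrial translation for its core, had 3 of 36 higher (Ndufa6, Ndufb11 and Ndufv3, the last by 0.66 ± 0.16) and none lower, with a median of 0.20. The members' median of 0.07 was nearer to that of all genes than either, and their share called higher (2.67%) was below that of complex I (8.33%) and of the cytosolic proteins (24.7%). The shares were 29.3%, 58.3% and 60.5% with median-of-ratios scaling, and 36.0%, 63.9% and 66.7% with voom and quality weights. With the length correction they were 21.3%, 22.2% and 39.5%. Adding the replicate block to it gave 14.7%, 13.9% and 32.1%, the only setting in which the members came above complex I. No difference between these lists was tested. Sequence shared with other genes was examined for the members only, and 81 of 94 cytosolic genes had enough reads for the test.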

How the data were processed

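Total RNA was depleted of ribosomal RNA and sequenced in 9 libraries. According to the labels and methods, the authors aligned reads with STAR 2.0.4b to Ensembl release 76 (GRCm38) and used featureCounts 1.4.5 to count the reads that aligned once and fell on a single gene. Deposited values were CPM, scaled by the authors to the library total, and RPKM values, in which the length of the gene model is divided out as well, with day 0 and day 7 in one table and day 4 in another. The members and lists were chosen with earlier results of these data known.

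Rounded to 4 digits, 99.99% to 100% of the CPM values of a library were whole multiples of 1 read (tolerance 0.01), so reads were recovered for the count models. The test of day 7 against day 0 used limma-trend (limma 3.58.1, R 4.3.3) on log2(CPM + 0.5). It covered 12712 genes whose CPM averaged 1 or more, with Benjamini-Hochberg adjustment over all of them at 0.05. Fold changes on this scale understate those of low genes. The prior had 42.9 degrees of freedom against 4 residual ones. Values tested on simulated data of 12712 genes gave 192 of 200 changed genes back (92% of 2-fold and 100% of 4-fold changes), with 19 false calls. The simulation had a fixed dispersion, no difference in rRNA share between libraries and no change below 2-fold. It therefore does not show how well smaller changes, such as those of the members, are found. Single values were compared by exact permutation tests. Repeated lines of a gene (276 and 273) were identical and used once. Alternatives were edgeR 4.0.16 and DESeq2 1.42.0 on the recovered reads, voom with quality weights, other scalings, filters, pseudocounts, a length correction (lowess span 0.3), a replicate block and leaving out each library. Overlaps, positions and principal transcripts come from GENCODE M21 (GRCm38) and promoters from RefSeq. Named members are the 5 largest changes in each direction, the 5 highest and lowest levels, those not tested and a set with known roles, and from other lists the largest called change in each direction. Counting error alone underlies the floor of 3 reads, since PCR copies were not marked.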

Additional observations from a re-analysis of the deposited data

How the results depend on the processing

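Members called higher (2, with 12.6% of all genes) numbered 18 with DESeq2 (all genes 20.3%), 23 with edgeR (22.2%), 22 with median-of-ratios scaling (22.2%), 27 with voomWithQualityWeights (24.8%), 16 with the length correction (22.2%), 11 with the length correction and the replicate block (19.4%), and 6 with totals without the 4 rRNA-rich genes (13.8%, added after seeing the data). Members called lower (0) numbered 2 with the length correction (all genes 19.0%) or with the block added (16.0%), 2 with those totals (34.8%) and 1 with voomWithQualityWeights (23.4%). Leaving out 1 library at a time gave 2 to 4 higher and 0 to 5 lower, 4 higher without day 0 replicate 1 (all genes 12.6%) and 4 higher with 5 lower without day 0 replicate 3 (12.6% and 36.9%). Other filters, pseudocounts, robust variances and the RPKM table gave 2 or 3 higher and 0 lower. The members' median ranged from -0.06 to 0.19 and stayed 0.12 to 0.20 above that of all genes.

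Same-numbered libraries did not deviate together (correlations -0.017, -0.181 and -0.444). The highest correlation, 0.356, was between day 0 replicate 3 and day 7 replicate 2, the libraries with most reads on the 4 rRNA-rich genes. These values were not corrected for library composition, so they cannot show whether equal numbers share a cell preparation. The fit with the replicate block called 2 members higher and 0 lower, with a median of 0.07, and 3 translation genes higher and 4 lower.

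Of the other translation genes (4 higher, 5 lower), DESeq2 called 8 and 3, edgeR 9 higher, median-of-ratios scaling 9 higher, voomWithQualityWeights 11 higher, genes with any reads 2 and 3, the length correction 8 higher, the length correction with the block 7 and 3, and totals without the 4 rRNA-rich genes 20 lower. Without 1 library, 2 to 4 were higher and 2 to 24 lower, with 24 without day 0 replicate 3, and at most 4 otherwise. Members with day 4 above day 0 (8) or below (7) numbered 14 and 16 with median-of-ratios scaling (27.0% and 28.8% of all genes), and 8 to 15 and 7 to 37 without 1 library, where 13 were above without day 0 replicate 1 (17.3% against 26.0% of all genes), 15 above without day 4 replicate 2 (20% against 25.3%) and 37 below without day 0 replicate 3 (49.3% against 49.7%).

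Among 30 named members with a test, 14 passed nowhere, and none lost a call. Signs turned for Mrpl2 (0.01 with DESeq2 and voomWithQualityWeights, 0.00 with edgeR and median-of-ratios scaling), Mrps18c (-0.03 with both length corrections, 0.00 with totals without the 4 genes), Mrpl24 (0.06 with DESeq2 and edgeR, 0.02 with both length corrections, 0.07 with median-of-ratios scaling, 0.05 with voomWithQualityWeights), Mrps22 (-0.04 with totals without the 4 genes), Mrpl3 (0.07 with both length corrections, 0.00 with median-of-ratios scaling), Mrpl54 (-0.11 with both length corrections, -0.04 with those totals) and Mrpl42 (-0.16 and -0.05 likewise). The cause was not tested. Without 1 library, values lay between -0.22 and 0.10 for Mrpl24, -0.33 and 0.02 for Mrpl3, -0.11 and 0.09 for Mrpl42, -0.11 and 0.12 for Mrpl54, -0.09 and 0.25 for Mrps10, -0.09 and 0.21 for Mrps18c and -0.09 and 0.15 for Mrps22.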

Other observations

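The 5 processed pseudogenes named after members (Mrpl23-ps1, Mrpl48-ps and 3 of Mrps36) had at most 5 reads in any library, and none was above 3 reads in every library.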
